A study of Homo sapiens with 12 samples.

Results

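The 9 genes described here encode core subunits of the Polycomb repressive complexes, PRC1 and PRC2, in SK-UT-1 cells, an established cell line from a human uterine leiomyosarcoma (uLMS). The rule lists them by name and uses no measured value. EZH1, EZH2, SUZ12 and EED make up the 4 PRC2 genes, and BMI1, RNF2, CBX2, CBX7 and CBX8 the 5 PRC1 genes. All 9 are among the 22784 gene symbols with an expression value, and all 9 passed the filter on low values. After 48 h in DMSO (vehicle), in 5 µM JQ1 or in 5 µM I-BET 762, RNA of the cells was sequenced. JQ1, a thienotriazolodiazepine, and I-BET 762, a benzodiazepine relative with the same fused triazole, keep the bromodomains of BET proteins from binding acetylated lysine. Of the 12 libraries labelled, 4 in each group, 10 are used here: DMSO replicates 13, 14 and 15, JQ1 replicates 17, 18, 19 and 20, and I-BET 762 replicates 21, 22 and 23. DMSO replicate 16 and I-BET 762 replicate 24 are not analysed here. The groups share the same cell line and differ in the treatment, and a single line is a limited model of the tumor. No label says that replicates came from separate cultures, so p-values measure only the spread between these libraries, which may be technical.

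Polycomb proteins keep developmental genes silent. PRC2 methylates lysine 27 of histone H3 through its catalytic subunit EZH2 or EZH1, with SUZ12 and EED as the scaffold and the reader that the enzyme needs. PRC1 places ubiquitin on histone H2A through RNF2 (RING1B) or its paralog RING1. In canonical PRC1 a CBX protein binds the mark left by PRC2, and BMI1 (PCGF4) partners the RING protein. EZH2 is known as a gene of proliferating cells and as a drug target in cancer, and BMI1 as a repressor of the CDKN2A locus.

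Between 35564586 and 39658989 reads lay on genes in each library. All values below are normalized counts, that is, reads divided by the library factor that the authors estimated, unless a log2 or per-kb value is named. The members rest on 233 reads (CBX7, with JQ1) to 11666 reads (SUZ12, with I-BET 762) in a library, and 3 reads, the most that a count of 0 allows, equal 2.73 to 3.3 normalized counts. Such limits cover counting error only. JQ1 replicate 18 stood apart most: its median absolute log2 difference from the other JQ1 libraries was 0.164, against 0.089 to 0.123 for the other 3. Among 7 measured smooth muscle markers MYOCD had at most 3 reads in any library, and the summed level of the markers was 20339.6 to 20968 with DMSO, 10619 to 11229 with JQ1 and 11758 to 12327 with I-BET 762. The 5 epithelial markers summed to 1212 to 1271, 511 to 602 and 497 to 544 in the same order. The smooth muscle sum hides unlike changes. Of the 6 such markers that could be tested, 5 were lower and 1, SMTN, higher with each inhibitor at adjusted p under 0.05 (limma). That threshold was passed by 71.7% of all genes tested with JQ1 and 61.1% with I-BET 762. The SMTN values of both treated groups overlapped the DMSO range. With the libraries scaled to equal totals or to equal upper quartiles, 5 markers were still lower and 0 higher with each inhibitor. The 3 endothelial and 2 immune markers summed to at most 7.4 normalized counts in any library. In bulk RNA, fewer cells of a type and less RNA per cell cannot be told apart.

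The stretch just upstream of the start is printed for EZH2 and SUZ12, which rose with both inhibitors, and for CBX7, which fell. The windows are RefSeq's on GRCh38.p14, up to 250 bases before the start and cut before any annotated exon, and read 5′ to 3′ on the strand of the gene. Capitals mark the letters CCAAT or ATTGG (the CCAAT box on either strand) and the 8-base E2F words.
EZH2, chr7:148884322-148884541, minus strand: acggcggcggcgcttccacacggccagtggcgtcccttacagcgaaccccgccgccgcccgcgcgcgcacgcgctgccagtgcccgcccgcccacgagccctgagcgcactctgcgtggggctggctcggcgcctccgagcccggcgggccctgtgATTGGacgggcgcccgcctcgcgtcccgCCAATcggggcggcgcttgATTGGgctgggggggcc
SUZ12, chr17:31936757-31937006, plus strand: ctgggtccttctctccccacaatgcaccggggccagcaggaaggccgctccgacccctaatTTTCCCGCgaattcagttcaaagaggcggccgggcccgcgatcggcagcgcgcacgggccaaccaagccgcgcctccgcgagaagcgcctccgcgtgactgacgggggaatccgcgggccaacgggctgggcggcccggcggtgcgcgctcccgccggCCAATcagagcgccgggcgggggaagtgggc
CBX7, chr22:39152681-39152930, minus strand: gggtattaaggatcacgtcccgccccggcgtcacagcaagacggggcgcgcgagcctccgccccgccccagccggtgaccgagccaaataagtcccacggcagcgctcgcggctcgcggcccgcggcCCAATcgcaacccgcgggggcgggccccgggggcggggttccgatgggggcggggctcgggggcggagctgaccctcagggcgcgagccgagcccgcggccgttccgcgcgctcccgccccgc

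The RefSeq table held windows for 7 of the 9 members, and CBX2 and CBX8 had none. Across the whole 250 bases, the E2F words TTTGGCGC, TTTCGCGC and TTTCCCGC, searched on both strands, occurred in 1 of the 7, SUZ12, at 189 bases before the start, and in 2.32% of 35114 windows of all genes. The CCAAT box was present in 4 of the 7 (EZH2, SUZ12, EED and CBX7) and in 32.0% of all windows. EZH2 held 4 copies of it, of which 3 lie in the printed stretch. The GC box GGGCGG occurred in 6 of the 7, all but EED, against 42.6% of all windows. The E-box CACGTG was found in BMI1 alone of the 7 (6.35% of all windows) and the TATA box TATAAA in none of them (10.7%). None of the words searched contains another. In the window nearest the Gencode start of each gene, the members held 11 to 41 CpG, and a further window of BMI1 held 54, where the median of all windows was 11 with quartiles of 3 and 23. The RefSeq start behind the EED window lies 43541 bases from the outermost 5′ end that Gencode gives this gene, so the window belongs to another start. These matches describe letters only.

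To ask how BET inhibition moves the Polycomb core, each inhibitor was compared with DMSO over 14839 genes by limma, with Benjamini-Hochberg adjustment. A gene is said to rise or fall when its adjusted p was under 0.05, and to be called when the change was also over 1.5-fold. JQ1 changed 5 of the 9 members, where 71.7% of all genes tested passed the same threshold. EZH2 and SUZ12 rose (36.0% of all genes rose), and RNF2, CBX2 and CBX7 fell (35.6% of all genes fell). I-BET 762 changed the same 5 members in the same directions, 5 of 9 against 61.1% of all genes, with 29.9% of all genes rising and 31.3% falling. Both comparisons share the DMSO libraries. Without JQ1 replicate 18 the number stayed at 5 with either inhibitor.

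Sizes were small. CBX2 and CBX7 were called with JQ1, 2 of 9 members where 36.1% of all genes were called, and 0 members were called with I-BET 762 against 26.9% of all genes. The 0 with I-BET 762 stands beside 5 members at an unadjusted p under 0.05, and limma-voom on the recovered reads also called 0. The median absolute log2 change of the members was 0.20 with JQ1 and 0.12 with I-BET 762, beside 0.43 and 0.33 over all genes tested. The JQ1 libraries lay wholly above or below the DMSO libraries for 6 of the 9 members (68.4% of all genes), 4 above and 2 below. With I-BET 762 this held for 7 of the 9 (71.0% of all genes), 4 above and 3 below. Scaling the libraries to equal read totals instead moved the median of all genes by −0.175 with JQ1 and by −0.097 with I-BET 762. Of the 5 members that passed, none changed direction under that scaling, whereas the JQ1 values of EED and BMI1, which had not passed, did.

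**Figure D1:**
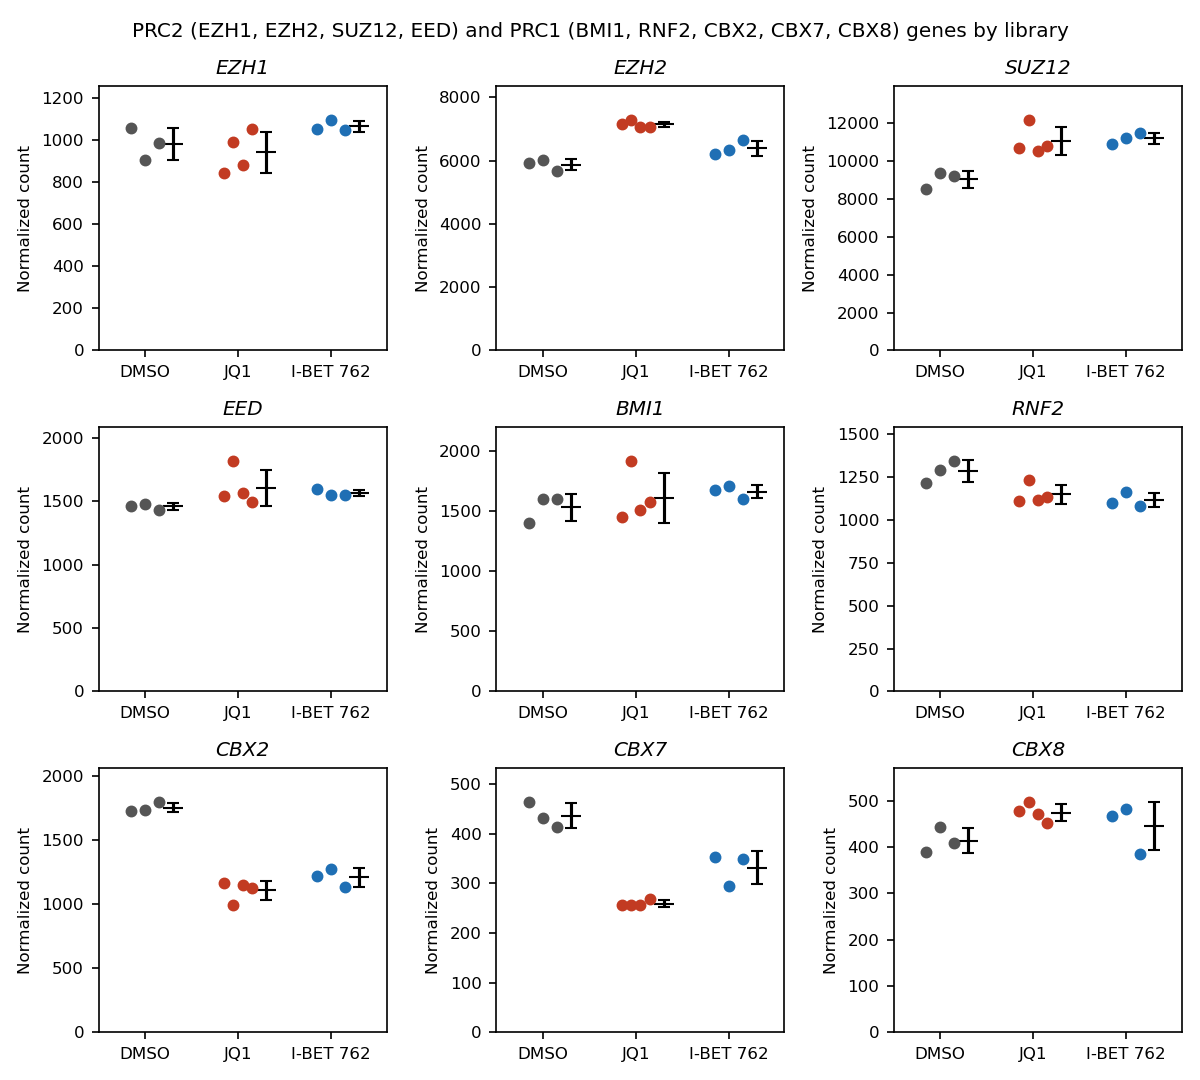
Normalized count (y axis, from 0) of each of the 9 Polycomb subunit genes in the 3 DMSO, 4 JQ1 and 3 I-BET 762 libraries. Points are libraries and the black mark with bars to their right is the mean ± SD; CBX2 and CBX7 lie lower in every treated library than in any DMSO library, and SUZ12 lies higher.

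Among the catalytic subunits of PRC2, EZH2 rose with both inhibitors while EZH1 passed the test with neither. EZH2 (ENSG00000106462, GRCh38 chr7:148807257-148884321, minus strand) is the methyltransferase typical of dividing cells. Its normalized counts were 5917, 6011 and 5682 with DMSO, 7158, 7269, 7073 and 7077 with JQ1, and 6198, 6329 and 6654 with I-BET 762. The 3 groups did not overlap, with DMSO lowest and JQ1 highest. The log2 change was 0.28 ± 0.04 (SE) with JQ1 (adjusted p = 2.04e-05, limma), a 1.22-fold rise, and 0.12 ± 0.05 with I-BET 762 (adjusted p = 0.0292), a 1.09-fold rise. The rise with I-BET 762 did not pass under equal totals (0.03, adjusted p = 0.62) or equal upper quartiles (0.09, adjusted p = 0.0964), nor without DMSO replicate 13 or 15 or I-BET 762 replicate 22 or 23, where adjusted p ran from 0.0501 to 0.135.

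EZH1 (ENSG00000108799, chr17:42700275-42745049, minus strand) is the paralog found mainly in resting and differentiated cells. It stood at 1059, 905 and 984 normalized counts with DMSO, at 842, 992, 882 and 1052 with JQ1, and at 1053, 1093 and 1047 with I-BET 762. The ranges of the 3 groups overlapped. Its log2 difference from DMSO was −0.06 with JQ1 (95% interval −0.23 to 0.1, adjusted p = 0.478) and 0.12 with I-BET 762 (−0.06 to 0.29, adjusted p = 0.232). Equal totals gave −0.25 with JQ1 (adjusted p = 0.0127), a scaling under which the median of all genes was −0.175.

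SUZ12 was the member that, on the deposited values, rose by nearly the same amount with each inhibitor. It encodes the PRC2 scaffold (ENSG00000178691, chr17:31937007-32001038, plus strand). SUZ12 was at 8553, 9405 and 9212 normalized counts with DMSO, at 10726, 12158, 10555 and 10831 with JQ1, and at 10931, 11209 and 11484 with I-BET 762. Every treated library exceeded every DMSO library, and the 2 treated groups overlapped, with JQ1 replicate 18 the highest of all. The log2 change was 0.29 ± 0.05 with JQ1 (adjusted p = 0.000178) and 0.31 ± 0.06 with I-BET 762 (adjusted p = 0.000254). Across the alternative settings run it was 0.1 to 0.32 with JQ1 and 0.21 to 0.34 with I-BET 762. The highest adjusted p was 0.0351 and 0.00325. JQ1 minus I-BET 762 ran from −0.11 to 0.0018 and passed under none of them. Of its 75-base exon stretches, 6.3% have an exact copy elsewhere on the primary assembly.

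EED (ENSG00000074266, chr11:86201212-86278813, plus strand) binds methylated histone H3 and stimulates the enzyme. Its normalized counts were 1465, 1480.1 and 1428 with DMSO, 1543, 1813, 1564 and 1495 with JQ1, and 1593, 1546 and 1551 with I-BET 762. No treated library fell within the DMSO range, yet the values lay close to it and JQ1 replicate 18 was far above the other 3. The log2 difference was 0.13 with JQ1 (interval 0 to 0.27, adjusted p = 0.065) and 0.1 with I-BET 762 (−0.04 to 0.24, adjusted p = 0.201).

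The RING and PCGF subunits among the members, RNF2 and BMI1, moved little. RNF2 (ENSG00000121481, chr1:185045526-185102603, plus strand), the H2A ubiquitin ligase, was at 1213, 1293 and 1339.6 normalized counts with DMSO. With JQ1 it was at 1112, 1232, 1116 and 1131, and with I-BET 762 at 1096, 1160.0 and 1083. All I-BET 762 libraries and 3 of the 4 JQ1 libraries were below the DMSO range, and JQ1 replicate 18 was within it. RNF2 fell by 0.16 on the log2 scale with JQ1 (SE 0.06, adjusted p = 0.0236) and by 0.2 with I-BET 762 (SE 0.06, adjusted p = 0.0109). The JQ1 fall no longer passed the adjusted p without DMSO replicate 14 or 15 or JQ1 replicate 17 or 19 (adjusted p 0.0557 to 0.118), and the I-BET 762 fall did not without DMSO replicate 15 (adjusted p = 0.059).

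BMI1 (ENSG00000168283, chr10:22321099-22331484, plus strand) had 1402, 1598 and 1596 normalized counts with DMSO, 1446, 1911, 1507 and 1574 with JQ1, and 1673, 1708 and 1601 with I-BET 762. The JQ1 and DMSO ranges overlapped, and the I-BET 762 libraries sat just above the DMSO libraries. The log2 difference was 0.07 with JQ1 (interval −0.11 to 0.24, adjusted p = 0.486) and 0.12 with I-BET 762 (−0.07 to 0.3, adjusted p = 0.253). Without JQ1 replicate 18, whose log2 value was 0.34 above the other JQ1 libraries, the JQ1 difference was −0.02. Of the exon bases of BMI1, 22.8% are shared with the readthrough gene COMMD3-BMI1 on the same strand, so the count is uncertain by the reads that the counting gave to either.

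CBX2 and CBX7, chromodomain readers of the PRC2 mark in canonical PRC1, showed the largest changes among the 9 genes with either inhibitor, and both changes were falls. CBX2 (ENSG00000173894, chr17:79778148-79787983, plus strand) is the CBX protein best known for compacting chromatin. Its normalized counts were 1733, 1739.9 and 1796 with DMSO, 1167, 996, 1148 and 1125 with JQ1, and 1221, 1276 and 1132 with I-BET 762. All 7 treated libraries were below the lowest DMSO library by more than the range of the DMSO libraries, and the treated groups overlapped. The log2 change was −0.67 ± 0.06 with JQ1 (adjusted p = 1.18e-07), to 0.63 of the DMSO level, and −0.54 ± 0.07 with I-BET 762 (adjusted p = 4.89e-06), to 0.69. Among the alternatives run that kept the 1.5-fold threshold, only equal totals called CBX2 with I-BET 762 (−0.64).

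CBX7 (ENSG00000100307, chr22:39120167-39152680, minus strand), known as a repressor of CDKN2A and a stem cell subunit, was the least abundant member per kb of exon. It had 463, 432 and 414 normalized counts with DMSO, 256, 256, 256 and 269 with JQ1, and 352, 294 and 349.5 with I-BET 762. The 3 groups did not overlap, with DMSO highest and JQ1 lowest. CBX7 changed by −0.75 ± 0.09 on the log2 scale with JQ1 (adjusted p = 1.04e-06), to 0.6 of the DMSO level, and by −0.4 ± 0.09 with I-BET 762 (adjusted p = 0.00151), to 0.76. A gene on the opposite strand, ENSG00000279833, overlaps 17.9% of the exon bases of CBX7, and COX5BP7 overlaps 3.7% on the same strand. The libraries were strand-specific and the strand setting of the counting is not given in the sources used here, so reads of the partner could be part of the CBX7 value.

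CBX8 (ENSG00000141570, chr17:79792132-79801683, minus strand) lies beside CBX2, with 4148 bases between them. CBX8 had 389, 444 and 409 normalized counts with DMSO, 478, 496, 471 and 452 with JQ1, and 467, 481 and 386 with I-BET 762. The JQ1 libraries were all above the DMSO libraries, and I-BET 762 replicate 23 was below all of them. The log2 difference was 0.2 with JQ1 (interval 0.01 to 0.38), whose adjusted p rounded to 0.05 and did not pass, and 0.1 with I-BET 762 (−0.1 to 0.29, adjusted p = 0.368). The neighbours CBX2 and CBX8 thus had differences of opposite sign with both inhibitors, but neither CBX8 difference passed the test. The CBX8 difference with JQ1 passed under 7 of the alternatives, at adjusted p 0.0284 to 0.0499. Other alternatives took it close to no change. Its smallest value was 0.01 for JQ1 and 0.0029 for I-BET 762. The highest adjusted p of CBX8 among the alternatives was 0.894 and 0.98 in the same order. For I-BET 762 the lowest was 0.0735.

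**Figure D2:**
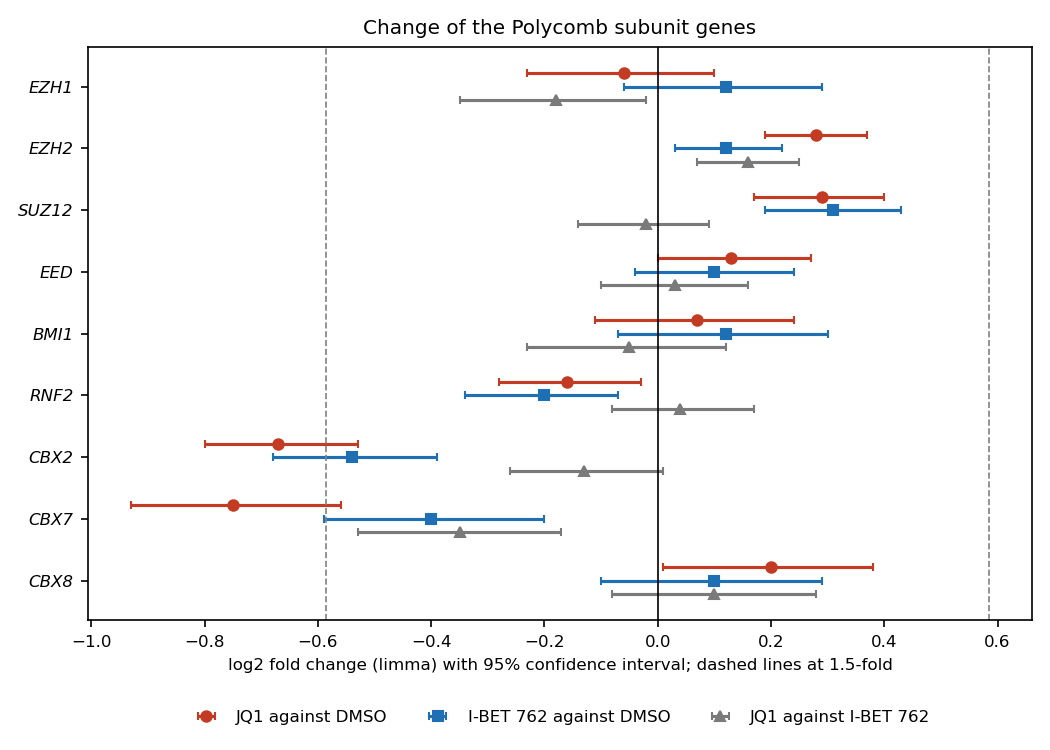
Log2 fold change with its 95% confidence interval (x axis) of the 9 genes (y axis) for JQ1 against DMSO, I-BET 762 against DMSO and JQ1 against I-BET 762, from limma. The dashed lines mark 1.5-fold; CBX2 at −0.67 and CBX7 at −0.75 with JQ1 are the points beyond them.

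To see whether the 2 related inhibitors, given at the same dose for the same time, differed, JQ1 was compared directly with I-BET 762. EZH2 was higher with JQ1 by 0.16 ± 0.04 on the log2 scale (adjusted p = 0.0116), a 1.12-fold difference. CBX7 was lower with JQ1, at −0.35 ± 0.09 (adjusted p = 0.00733), or 0.78 of its level with I-BET 762. These were 2 of 9 members where 27.3% of all genes passed. Counting changes over 1.5-fold, 0 members were called against 5.31% of all genes, by limma and by limma-voom on the recovered reads alike, beside 3 members at an unadjusted p under 0.05 (EZH1, EZH2 and CBX7). The EZH2 difference was lost under equal totals (0.07, adjusted p = 0.205) and without I-BET 762 replicate 21 or 22 (adjusted p = 0.0737 and 0.0559). For the other 7 members no difference passed. The intervals of JQ1 minus I-BET 762 were −0.14 to 0.09 for SUZ12, −0.26 to 0.01 for CBX2 (adjusted p = 0.154), −0.08 to 0.17 for RNF2 and −0.1 to 0.16 for EED. Those of the rest were −0.35 to −0.02 for EZH1 (adjusted p = 0.0972), −0.23 to 0.12 for BMI1 and −0.08 to 0.28 for CBX8.

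Levels were compared between genes as normalized counts per kb of exon. In DMSO, SUZ12 was the most abundant member at 1383 ± 68.2 (SD, n = 3) per kb, followed by EZH2 at 545 ± 15.7. BMI1 at 349 ± 25.5, RNF2 at 328 ± 16.4 and CBX2 at 309.6 ± 6.06 came next, where BMI1 overlapped RNF2 and RNF2 overlapped CBX2. EED followed at 208 ± 3.85, EZH1 at 141 ± 11.0, CBX8 at 100.3 ± 6.69 and CBX7 at 58.4 ± 3.31, all without overlap between neighbours. With JQ1 the order changed in 1 place, where EED at 229 ± 20.3 (SD, n = 4) stood above CBX2 at 196 ± 13.6, and no neighbours overlapped. With I-BET 762, EED at 224 ± 3.68 (SD, n = 3) and CBX2 at 213 ± 12.8 took the same places but overlapped. SUZ12 reached 1689 ± 112 per kb with JQ1 and 1711 ± 42.2 with I-BET 762, and CBX7 34.7 ± 0.86 and 44.4 ± 4.42. The length used covers every annotated exon base of a gene, which understates the level of a gene whose main transcript uses few of them.

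**Figure D3:**
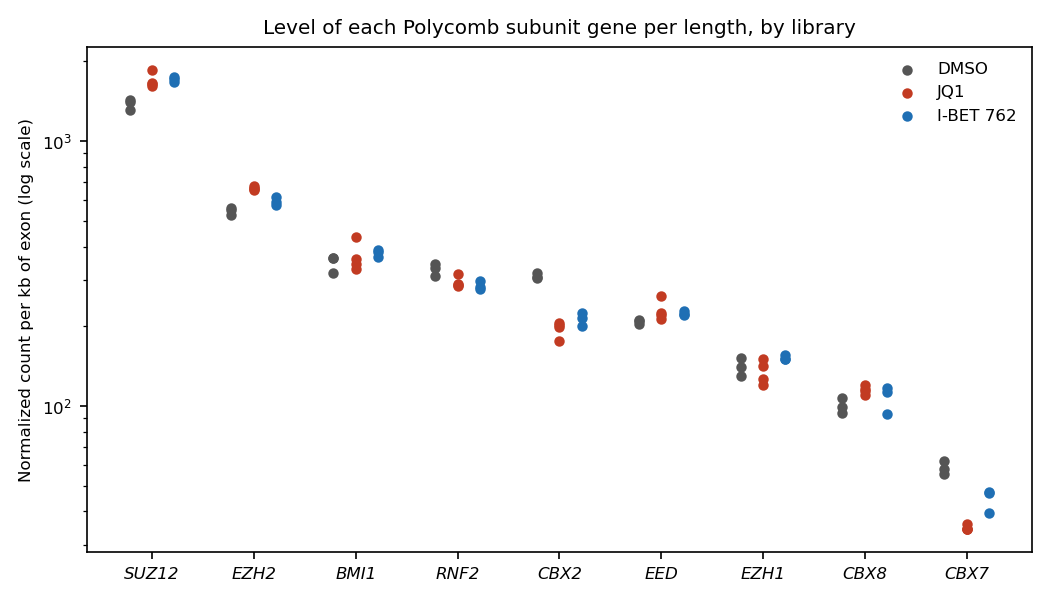
Normalized count per kb of exon (y axis, log scale) of each member in every library, ordered by the DMSO mean, with DMSO, JQ1 and I-BET 762 side by side. SUZ12 lies highest and CBX7 lowest in all 3 groups, and CBX2 drops below EED with JQ1.

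Within a library, the paralogs that fill the same position can be set against each other, which needs no scaling between libraries. The shares still depend on the exon lengths used, 10774 bases for EZH2 and 6988 for EZH1. EZH2 made up 79.5% ± 1.47 (SD, n = 3) of the summed per-kb level of EZH1 and EZH2 with DMSO, 83.1% ± 1.45 (n = 4) with JQ1 and 79.6% ± 0.8 (n = 3) with I-BET 762. The JQ1 libraries, at 81.4% to 84.6%, were all above the DMSO libraries, at 78.4% to 81.2%, and the I-BET 762 libraries were within the DMSO range. Of the summed per-kb level of CBX2, CBX6, CBX7 and CBX8, CBX2 made up 26.5% ± 0.99 with DMSO, 16.2% ± 0.25 with JQ1 and 17.9% ± 0.54 with I-BET 762. CBX7 went from 5.0% ± 0.25 to 2.88% ± 0.23 and 3.75% ± 0.46. Both treated groups lay below the DMSO libraries for both genes. CBX6, the largest share, was 59.9% ± 0.92 with DMSO, 71.4% ± 1.27 with JQ1 and 69.2% ± 1.03 with I-BET 762, and all treated libraries lay above the DMSO libraries. CBX8 had overlapping shares of 8.58% ± 0.5, 9.56% ± 1.01 and 9.06% ± 0.8. With 4 against 3 libraries a two-sided exact permutation test cannot go below p = 0.0571, and with 3 against 3 not below 0.1, so these shares are given as values.

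**Figure D4:**
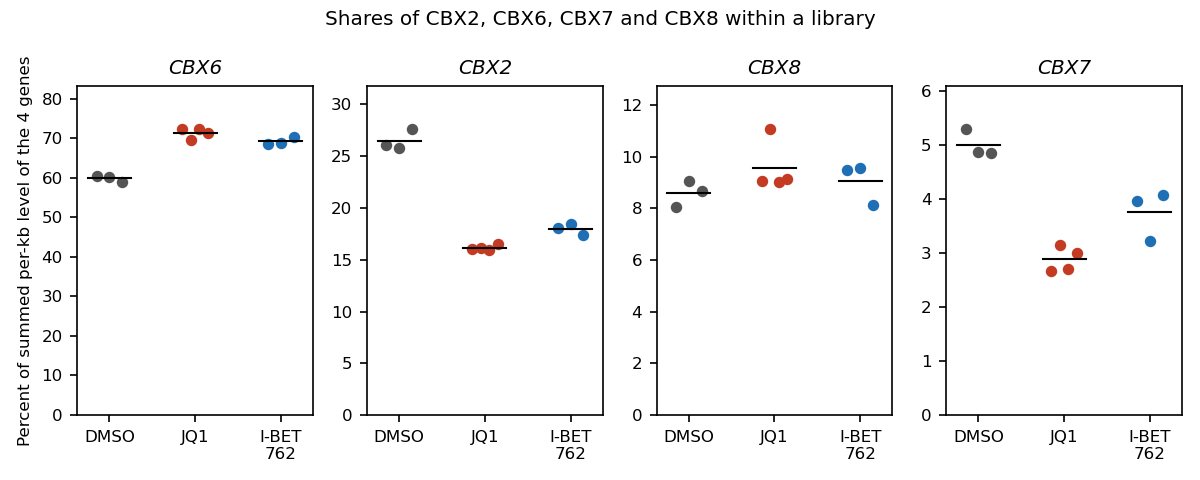
Share of CBX2, CBX6, CBX7 and CBX8 in their summed per-kb level (y axis, percent, from 0, with its own scale in each panel) in every library, with a line at the group mean. CBX2 and CBX7 have lower shares, and CBX6 higher shares, in all treated libraries than in any DMSO library.

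The other genes of the pathway came from lists of known PRC2 and PRC1 partners and of enzymes that remove their marks, 46 genes in all, of which 41 could be tested. RING1, PCGF2 and ASXL3 were too low to test, and EPOP and EZHIP are not analysed here. With JQ1, 12 rose and 17 fell (2 and 5 of them called), and with I-BET 762, 12 rose and 11 fell (2 and 2 called). That is 29 of 41 and 23 of 41 changed, beside 71.7% and 61.1% of all genes, and 7 of 41 and 4 of 41 called, beside 36.1% and 26.9%, with a median absolute log2 change of 0.3 and 0.25. Under equal totals 7 rose and 24 fell with JQ1, and 8 rose and 17 fell with I-BET 762, so the balance of rises and falls depends on the scaling.

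Among PRC2 partners, 2 of 9 tested rose and 3 fell with JQ1, and 2 rose and 2 fell with I-BET 762. PHF19, a Polycomb-like protein that guides PRC2 to its sites, was the partner that moved most. Its normalized counts were 3452, 3428 and 3381 with DMSO, 1175, 1276, 1279 and 1382 with JQ1, and 1878, 1815 and 1745 with I-BET 762. The 3 groups were far apart, with JQ1 lowest. PHF19 changed by −1.42 ± 0.06 on the log2 scale with JQ1 (adjusted p = 3.69e-12) and by −0.92 ± 0.06 with I-BET 762 (adjusted p = 3.41e-09), and JQ1 was lower than I-BET 762 by −0.51 ± 0.06 (adjusted p = 1.35e-05). MTF2, another Polycomb-like protein, rose by 0.44 ± 0.07 with JQ1 (adjusted p = 1.91e-05) and by 0.32 ± 0.07 with I-BET 762 (adjusted p = 0.000912). RBBP4, a histone-binding subunit that PRC2 shares with other complexes, changed by −0.52 ± 0.05 with JQ1 (adjusted p = 6.02e-08) and by −0.29 ± 0.05 with I-BET 762 (adjusted p = 0.000114). MTF2, RBBP4 and JARID2 were chosen for mention after their values were seen, as were KDM6A and BAP1. JARID2, an accessory subunit that bridges the complexes, was at −0.08 and −0.04 and did not pass.

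In canonical PRC1, 3 of 6 tested partners rose and 2 fell with JQ1, and 3 rose and 2 fell with I-BET 762. Of the rises, 0 were called with either inhibitor. SCML2, named after its values were seen, had group means of 981.9 normalized counts with DMSO, 1459.5 with JQ1 and 1447.4 with I-BET 762. SCMH1, a Sex comb on midleg homolog, had 1282, 1169.5 and 1209 normalized counts with DMSO, 745, 731, 735 and 790.1 with JQ1 and 888, 989 and 892 with I-BET 762. SCMH1 changed by −0.7 ± 0.06 on the log2 scale with JQ1 (adjusted p = 4.69e-08) and by −0.4 ± 0.07 with I-BET 762 (adjusted p = 7.17e-05). PHC1, a Polyhomeotic protein that polymerizes PRC1, stood at −0.83 ± 0.09 (adjusted p = 6.8e-07) and −0.51 ± 0.1 (adjusted p = 0.000309). Its value is uncertain, since 73.7% of its exon stretches have an exact copy elsewhere on the primary assembly. RING1 and PCGF2 had at most 2 reads in any library. All of their exon stretches have an exact copy on an alternate contig of the reference, and the part of those copies in the low counts was not tested.

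In variant PRC1, whose members carry RYBP or YAF2 in place of a CBX protein, 5 of 16 rose and 8 fell with JQ1, and 4 rose and 4 fell with I-BET 762. RYBP had 2220, 2219 and 2139 normalized counts with DMSO, 3723, 4086, 3853 and 3778 with JQ1, and 3311, 3415 and 3494 with I-BET 762. It was the partner with the largest rise, by 0.82 ± 0.05 on the log2 scale with JQ1 (adjusted p = 2.77e-10) and by 0.64 ± 0.05 with I-BET 762 (adjusted p = 2.71e-08). BCOR, a corepressor of the variant complex with PCGF1, had 814, 652 and 693 normalized counts with DMSO, 389, 343, 389 and 444 with JQ1 and 429, 454 and 502 with I-BET 762. BCOR changed by −0.88 ± 0.1 (adjusted p = 6.96e-07) and −0.64 ± 0.1 (adjusted p = 7.36e-05), and with I-BET 762 it was no longer over 1.5-fold without DMSO replicate 13 or I-BET 762 replicate 21. L3MBTL2, a subunit of the variant complex with PCGF6, was at −0.59 ± 0.05 with JQ1 (adjusted p = 4.61e-08), on the 1.5-fold line, and at −0.27 ± 0.06 with I-BET 762 (adjusted p = 0.000603). Without DMSO replicate 13 or JQ1 replicate 17 or 19 it fell short of 1.5-fold with JQ1.

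Of the genes whose products remove Polycomb marks or join such complexes, 2 of 10 tested rose and 4 fell with JQ1, and 3 rose and 3 fell with I-BET 762. USP16, an H2A deubiquitinase, had 3960.2, 4597 and 4513 normalized counts with DMSO, 6804, 7975, 6767 and 6263 with JQ1, and 7066, 7105 and 6544 with I-BET 762. USP16 rose by 0.67 with each inhibitor (adjusted p = 4.83e-07 and 2.01e-06), and under equal totals neither rise was over 1.5-fold. The H3K27 demethylase KDM6A was at −0.10 with JQ1 and −0.06 with I-BET 762 and passed with neither, and BAP1, the catalytic H2A deubiquitinase of its complex, was at 0.03 and 0.05 and passed with neither.

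**Figure D5:**
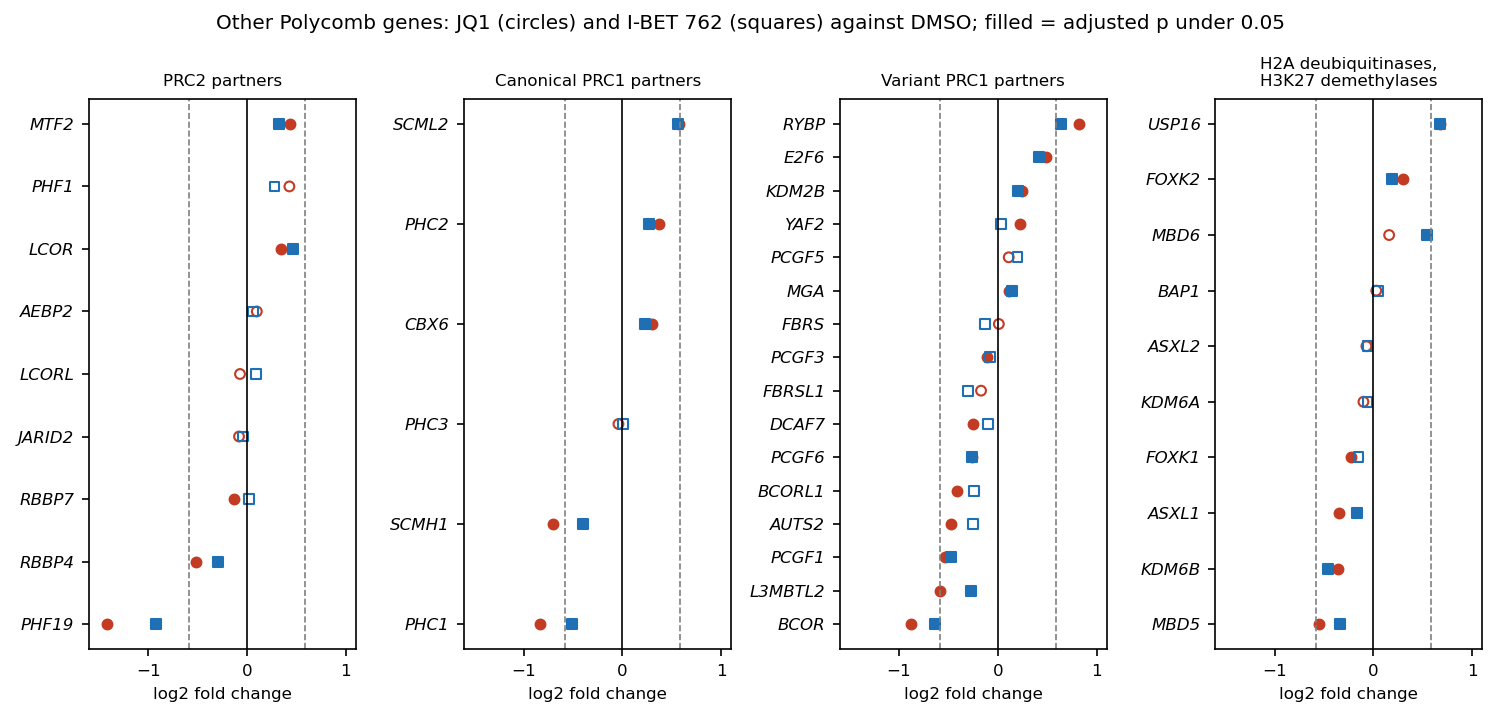
Log2 fold change (x axis) of each tested partner gene (y axis) in 4 lists, for JQ1 (circles) and I-BET 762 (squares) against DMSO; filled marks passed an adjusted p of 0.05 and dashed lines mark 1.5-fold. PHF19 at −1.42 with JQ1 lies farthest to the left and RYBP at 0.82 farthest to the right.

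Genes that Polycomb is known to silence in many cell types, mostly developmental regulators with a few cell cycle inhibitors, were examined from a list of 31, of which 14 could be tested. With JQ1, 2 rose and 5 fell (1 and 1 called), and with I-BET 762, 0 rose and 7 fell (0 and 2 called). The 7 of 14 that passed with each inhibitor stand beside 71.7% and 61.1% of all genes, and the 2 of 14 called beside 36.1% and 26.9%. The median log2 difference of the 14 was −0.13 and −0.28. GATA2, a hematopoietic and endothelial factor, was called up with JQ1 by 0.78 ± 0.11 (adjusted p = 5.98e-06), from 332, 329 and 298 normalized counts to 596, 472, 575 and 559. With I-BET 762 it was at 332, 314 and 417, a log2 difference of 0.14 that did not pass, and the difference between the inhibitors was 0.64 ± 0.11 (adjusted p = 0.000404). LHX2, a homeobox factor, fell with both inhibitors, at −0.47 ± 0.13 with JQ1 (adjusted p = 0.0034) and −0.68 ± 0.13 with I-BET 762 (adjusted p = 0.000402), the latter called. HAND2, a factor of uterine stroma and heart, was called down with both, at −1.62 ± 0.34 with JQ1 (adjusted p = 0.000486) and −1.47 ± 0.36 with I-BET 762 (adjusted p = 0.00238). It had 39 to 50 reads with DMSO, 10 to 14 with JQ1, and 9, 11 and 29 with I-BET 762, and HAND2-AS1 overlaps 24.1% of its exon bases on the other strand. CDKN2A, the cell cycle inhibitor locus that BMI1 and CBX7 are known to repress, is named after its values were seen. It had 5385, 5964 and 6058 normalized counts with DMSO, 6345, 4193, 7230.2 and 3823 with JQ1, and 4082, 3818 and 3804 with I-BET 762. The JQ1 libraries spread to both sides of the DMSO range, and the I-BET 762 libraries were all below it. The log2 difference was −0.15 with JQ1 (interval −0.49 to 0.18, adjusted p = 0.395) and −0.57 ± 0.17 with I-BET 762 (adjusted p = 0.0082), and the latter did not pass without the intensity trend (adjusted p = 0.0528). Without JQ1 replicate 19 the JQ1 difference was −0.31 and passed (adjusted p = 0.0429). With I-BET 762 CDKN2A was called, at −0.6 to −0.67, under equal totals, under equal upper quartiles and without DMSO replicate 13 or I-BET 762 replicate 21. CDKN2B-AS1 overlaps 15.3% of its exon bases on the other strand. For 14 genes of the list the values were too low to test, and SOX1, NKX2-2 and OLIG2 are not analysed here. The filter keeps genes with measurable RNA, so the counts and medians above leave out the targets that were silent or nearly so. Whether silencing of those changed was not tested.

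Since EZH2 is a gene of proliferating cells, proliferation genes are given beside it. Of 12 tested, 2 rose and 8 fell with JQ1, where 36.0% of all genes rose and 35.6% fell, and also 2 rose and 8 fell with I-BET 762, where 29.9% rose and 31.3% fell. The 2 that rose, RRM2 and PCNA, are named after their values were seen, as are E2F2 and MCM5, which fell. The group means of E2F2 were 1444.5 normalized counts with DMSO, 420.3 with JQ1 and 590.6 with I-BET 762. Those of MCM5 were 7411.6, 3608.4 and 4690.3. RRM2, a subunit of ribonucleotide reductase, was at 15188 to 16391 normalized counts with DMSO, 28607 to 30369 with JQ1 and 21679 to 23196 with I-BET 762, with the 3 groups in the same order as for EZH2. Its log2 change was 0.88 ± 0.05 (adjusted p = 1.42e-10) and 0.51 ± 0.05 (adjusted p = 3.9e-07). PCNA, the sliding clamp of DNA replication, changed by 0.24 ± 0.07 (adjusted p = 0.00602) and 0.19 ± 0.07 (adjusted p = 0.0347), and under equal totals it passed with neither inhibitor (0.05 and 0.1). Its rise with I-BET 762 also did not pass under 3 other settings (adjusted p 0.0532 to 0.0946) or when DMSO replicate 13 was left out (0.14, adjusted p = 0.144). The same held for leaving out I-BET 762 replicate 21 or 22 (0.18 for both, adjusted p = 0.102 and 0.0966). MKI67, a marker of cycling cells, changed by −0.27 ± 0.07 (adjusted p = 0.00182) and −0.28 ± 0.07 (adjusted p = 0.0033). E2F1, an activator of cell cycle genes, was at 0.11 (adjusted p = 0.108) and 0.13 (adjusted p = 0.107) and did not pass. The part of proliferation in the members' values was not tested. HEXIM1, whose rise is the usual sign of BET inhibition, went from 1601 to 1641 normalized counts with DMSO to 4451 to 4898 with JQ1 and 3251 to 3528 with I-BET 762, a log2 change of 1.53 ± 0.05 and 1.05 ± 0.05. MYC rose by 1.0 ± 0.05 and 0.54 ± 0.06.

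For the 3 members with the largest mean absolute change, the tested genes with the most similar profile over the 10 libraries were found by Pearson correlation of log2 values. CBX2 was closest to CCDC163 (r = 0.995) and SH3BP4 (r = 0.992), CBX7 to DISC1 (r = 0.989) and LPP (r = 0.985), and SUZ12 to ATPAF1 (r = 0.991) and SRBD1 (r = 0.99). Such values are common here, because the 10 libraries fall into 3 groups that differ widely: 939 genes exceeded r = 0.95 with CBX2, 488 with CBX7 and 218 with SUZ12. DISC1, the nearest to CBX7, was at −1.72 with JQ1 and −0.96 with I-BET 762, each a larger fall than that of CBX7 itself.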

How the data were processed

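RNA-seq libraries of SK-UT-1 cells were made by the authors with a strand-specific total RNA protocol. Per the labels and the paper, trimming used Trimmomatic, alignment to hg38 used HISAT2 2.2.1, counting on Gencode 41 genes used featureCounts 2.0.3, and DESeq2 gave the normalized counts. Samples that the authors took for outliers had been left out. As deposited, a value is a normalized count with 1 added, on a log2 scale, which understates the change of low genes. Undoing the log2 gave whole reads for 99.74% to 99.77% of values in a library (tolerance 0.02 reads).

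Genes with a normalized count of at least 10 in at least 3 libraries (14839) were fitted with limma 3.58.1 (R 4.3.3), with all 10 libraries, 3 groups and an intensity trend in one model, and Benjamini-Hochberg adjustment over all genes tested. The same code was tested on simulated data. The counts of replicate pairs differed beyond counting error (chi-square per gene 2.77 to 22.12), so none was counted as a duplicate. Gene positions, exon lengths and overlaps come from Gencode 44 on GRCh38, and copies of 75-base exon stretches were found with minimap2 2.31. Windows before start sites come from RefSeq (GRCh38.p14).

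The members and lists were chosen with earlier results of these data known. Named besides the members were partner and target genes called with either inhibitor, up to 6 a list by the larger change, then E2F1, MKI67, HEXIM1 and MYC, and the 2 genes most alike for each of 3 members. Alternatives were other pseudocounts (0.5 and 5), filters, scalings and fold thresholds, a fit without trend, a fit of 2 groups only, limma-voom on the recovered reads, and leaving out each library. Some genes and the results that need them are not reported here, and the lists were counted without them.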

Additional observations from a re-analysis of the deposited data

Results flagged for a closer look

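In the JQ1 group, 9 sets of 4 libraries, 1 for each member, were examined for a library far from the others, and 2 were past the 95% limit of 0.829 for the gap over the range. Chance passes about 1 set in 20. RNF2 in JQ1 replicate 18 was at a log2 value of 10.27, with a gap of 0.835 of the range. CBX7 in JQ1 replicate 20 was at a log2 value of 8.08, with a gap of 0.966 of the range, although the 4 libraries spanned only 256 to 269 normalized counts. The effects of the inhibitors differed, by limma with Benjamini-Hochberg adjustment, for EZH2 at 0.16 (JQ1 minus I-BET 762, log2, adjusted p = 0.0116) and for CBX7 at −0.35 (adjusted p = 0.00733). The EZH2 difference did not pass under 3 of the alternatives, with adjusted p up to 0.205, and the CBX7 difference passed under all of them.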

How the results depend on the processing

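The 27 log2 changes of the members were recomputed under 19 alternatives each, 513 values in all: 479 kept direction and side of the threshold, 14 lost the adjusted p, 12 gained it and 8 changed direction. Under equal totals EED and BMI1 with JQ1 became −0.05 and −0.12, and for JQ1 minus I-BET 762 EED and RNF2 became −0.06 and −0.05. Leaving out single libraries gave BMI1 with JQ1 −0.02 to 0.11, and for JQ1 minus I-BET 762 SUZ12 −0.07 to 0.0018, EED −0.03 to 0.06 and CBX8 −0.0003 to 0.16. None of these 8 had passed the test. Members called with JQ1 were 2 under every alternative but no fold threshold (5) and 2-fold (0). With I-BET 762 they were 0 except under equal totals (1, CBX2) and no fold threshold (5), and between inhibitors 0 except without the fold threshold (2). All genes called with JQ1, with I-BET 762 and between them were 3359, 2338 and 418 at a mean normalized count of at least 100, where fewer genes were tested, 10633, 9073 and 4047 without the fold threshold, and 2958, 2108 and 206 at 2-fold. Limma-voom on the recovered reads called 5397, 4033 and 739. Equal totals raised the falling share of all calls from 63.1% to 77.5% with JQ1, from 66.7% to 75.5% with I-BET 762 and from 67.5% to 82.0% between them. Apart from the settings that set the fold or the genes tested by construction, the cause was not tested. No paired analysis was possible because the replicate numbers of the libraries are all different. The members had at least 233 reads in every library, and the effect of depth on their values was not tested.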
